A study of Bos taurus with 8 samples.

Results

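The insulin-like growth factor (IGF) system was described here through 10 genes, chosen by name: the ligands IGF1 and IGF2, the receptors IGF1R and IGF2R, the binding proteins IGFBP2, IGFBP3, IGFBP4, IGFBP5 and IGFBP6, and the protease PAPPA. They had 12 of the 43794 gene probes on the array and were 10 of its 15216 genes with a symbol. IGF2 had 3 probes and each of the other genes had 1. The rule used the probe symbols and no measured values.

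Granulosa cells line the follicle and make oestradiol. IGF1 and IGF2 act on them mostly through IGF1R, a tyrosine kinase receptor that works together with follicle-stimulating hormone, while IGF2R takes up IGF2 and delivers it to lysosomes. The binding proteins hold IGFs in follicular fluid and mostly keep them from the receptor. PAPPA, a metalloproteinase, cuts IGFBP4 and IGFBP5 and so frees the bound IGF. In cattle, dominant follicles are known for little low molecular weight binding protein in their fluid and regressing follicles for more.

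The 2 groups compared were mural granulosa cells of dominant follicles in the plateau phase and in the atretic phase, all from Holstein ovaries collected at a slaughterhouse, with follicles of more than 9 mm. The study assigned the phase from the DNA content of the cells in flow cytometry, ranking follicles so that those with most cells of low DNA content were called atretic. Cycle stage and reproductive status of the cows were not known, their ages are not given in the sources used here, and the labels do not tie the follicles to separate cows. Each of the 8 arrays held 1 atretic and 1 plateau follicle, and each of the 4 pairs of follicles was hybridised once in each dye orientation. Values are thus given for 4 pairs or 8 follicles, as a log2 ratio of atretic over plateau or as a level, which is a normalized log2 intensity averaged over both dyes. Levels can be compared between follicles but not between probes. Both follicles of a pair shared their arrays, so their levels also share the spots they were read from. P-values and confidence intervals rest on the spread between these 4 pairs, which limma moderates for each probe toward that of all probes. They cover no other source of spread, and 4 pairs limit their precision. A difference in bulk RNA cannot tell fewer cells of a type from less RNA per cell.

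Median spot intensities were 163 to 285 in Cy5 and 206 to 376 in Cy3. The 95th percentile of the negative control spots was at a level of 7.02 to 7.33, so readings near 7 carried little signal. All 12 granulosa markers examined were tested, and their mean level was 11.5 to 12.9 in the atretic and 9.79 to 13.2 in the plateau follicles. The plateau follicle of pair 3 stood apart. Its 9 markers of fibroblasts and stroma averaged 12.5, against 7.90 to 9.07 in the other plateau and 8.42 to 8.95 in the atretic follicles. Of the 12 granulosa markers, 9 had their lowest level of the 8 follicles there. FOXL2, a granulosa transcription factor, was at 6.93, under the 95th percentile of the negative controls. AMH at 7.18 and HSD17B1 at 7.23 were within the range of that percentile, and FSHR was at 7.93. SERPINE2 read 13.8, INHBA 13.1 and GATA4 14.1. Though well above background, SERPINE2 and INHBA had their lowest level of the 8 follicles there. CYP19A1 (aromatase, which makes oestradiol) was at 7.52, and lower still in the plateau follicle of pair 2. Mean ratios of members that rest on this follicle are given with and without its pair.

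None of the IGF system genes passed the study's threshold, a fold of 1.5 at an unadjusted p of 0.05. Of the 10 genes, 9 (11 probes) were bright enough to be tested, with a mean level of at least 7, and 0 rose, 0 fell and 9 did not pass. Over all 13068 genes tested, 5.66% passed. Those higher in the atretic phase made up 2.79% and those lower 2.88%. Of the 34022 probes, 4.06% passed. In limma with Benjamini-Hochberg adjustment, 0 of the 9 genes passed an adjusted p of 0.05, and 0% of all probes did. At an unadjusted p of 0.05 without a fold, 1 of the 9 genes, IGFBP2, passed, a share near the 9.57% of all genes. Fitted on all 8 arrays with the pair as a replicate block, IGF1R passed the study's threshold, at an unadjusted p of 0.0138 and an adjusted p of 0.237, in a fit that called 9.35% of all genes. The mean ratio was above 0 for 4 genes and below 0 for 5, with a median of -0.056 against 0.0014 over all genes. In each of the 9 genes the 4 atretic and 4 plateau levels overlapped, as they did in all but 2.76% of genes. The spread over pairs differed widely between members, with an SD of 0.13 for IGFBP2 and 3.11 for IGF2, against a median of 0.392 over all genes.

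**Figure D1:**
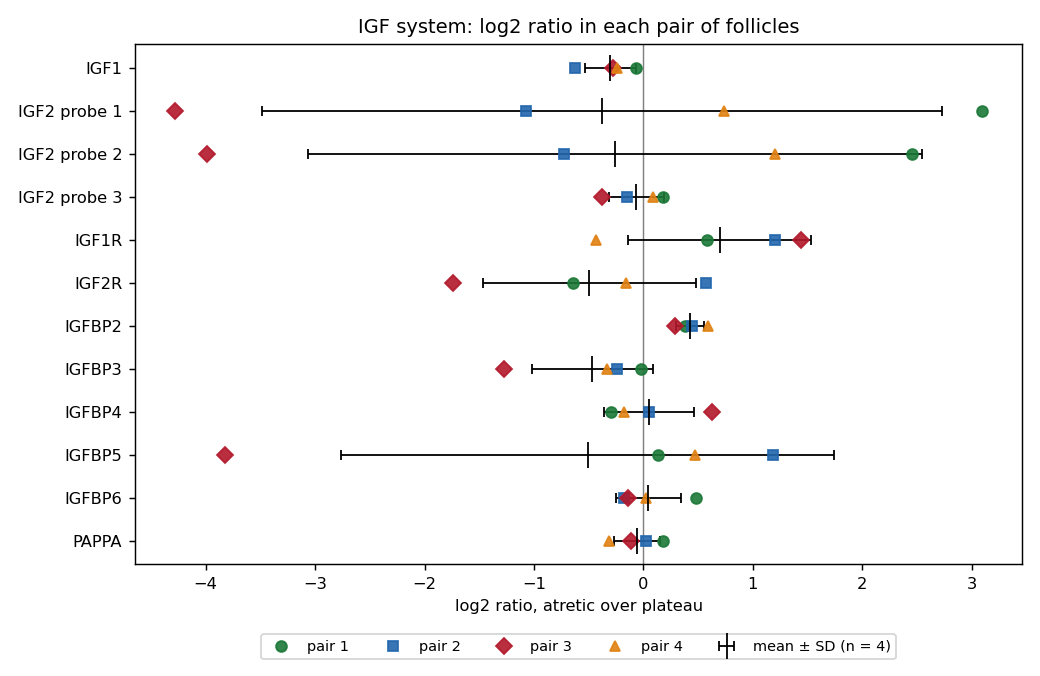
Log2 ratio of atretic over plateau (x axis) for each of the 12 probes (y axis), with 1 point per pair of follicles and the mean ± SD over 4 pairs. IGF2 probes 1 and 2 and IGFBP5 spread from -4.28 to 3.10, with pair 3 lowest, while the 4 points of IGFBP2 lie together above 0, from 0.29 to 0.59.

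IGF1 (probe EMBV3_19992), the ligand made mainly by the liver and in the ovary of many mammals also by granulosa cells, was read at the level of the negative controls. Its levels in the atretic follicles of pairs 1 to 4 were 6.82, 6.70, 6.96 and 6.88, and in the plateau follicles 6.88, 7.32, 7.24 and 7.12. Only 4 of 16 array channels exceeded the 95th percentile of the negative controls, and at a mean level of 6.99 the probe was not tested. Its ratios of -0.065, -0.62, -0.28 and -0.24 averaged -0.30 ± 0.23 (SD, n = 4), but the mean was -0.60 on the slide with atretic RNA in Cy5 and -0.0018 on the slide with the dyes swapped. Its transcript was not well above background on this array in either phase.

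IGF2, the ligand that theca cells are known to make in cattle, differed more between pairs than nearly any other gene. Probe EMBV3_37311, its brightest, gave levels of 12.42, 11.66, 11.66 and 13.00 in the atretic follicles. The plateau follicles read 9.33, 12.73, 15.94 and 12.26. The raw intensities behind the 15.94 were 61488 and 61126, not saturated but near the top of the scanner's scale, which limits how exactly that level is measured. The atretic follicles lay within 1.34 of each other, and the plateau follicles held both the lowest and the highest level, 6.61 apart.

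The ratios of this IGF2 probe were 3.10 in pair 1, -1.07 in pair 2, -4.28 in pair 3 and 0.74 in pair 4. Their mean was -0.38 ± 3.11 (SD, n = 4; 95% confidence interval -3.33 to 2.57), at an adjusted p of 0.969 in limma. The direction was opposite in pairs 1 and 3, and each held in both dye orientations, at 3.50 and 2.70 in pair 1 and at -3.35 and -5.21 in pair 3. The SD over pairs was larger than in 99.9% of genes tested. Without pair 3 the mean was 0.92.

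The probe EMBV3_41040 of IGF2 gave the same order of pairs. Its ratios were 2.46, -0.72, -3.99 and 1.20, with a mean of -0.26 ± 2.81. Its levels were 8.56, 7.29, 8.15 and 8.51 in the atretic and 6.10, 8.01, 12.14 and 7.31 in the plateau follicles, again lowest in pair 1 and highest in pair 3 of the plateau phase. The level of 6.10 lies under the negative controls, so the size of the ratio in pair 1 is not measured on both sides. The probe EMBV3_16283 was dim, with 7 of 16 channels above the negative controls, and its ratios were 0.18, -0.15, -0.38 and 0.087. Its dye orientations disagreed in sign in pairs 1 and 4, so no direction is read from it.

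Markers of stroma, smooth muscle and macrophages had, on average, the sign of IGF2 in pairs 1 to 3 and the opposite sign in pair 4. The 9 stroma markers, none of which passed the threshold, averaged 1.04, -0.65, -4.05 and -0.082 in pairs 1 to 4. All 9 were lower in the atretic follicle in pair 3, and COL1A2, a fibrillar collagen, by -6.93. The 5 macrophage markers averaged 0.59, -1.27, -1.26 and -0.13. All 5 were higher in the atretic follicle in pair 1 and all 5 lower in pairs 2 and 3. The 5 smooth muscle markers averaged 0.53, -0.26, -1.39 and -0.69, though MYH11 was at 5.03 in pair 3. The 12 granulosa markers averaged -0.11, 0.91, 2.27 and -0.62, a mean opposite to IGF2 in all 4 pairs. In pair 1, though, 9 of the 12 were above 0, as IGF2 was, and 3 below. The 4 theca markers tested averaged 0.44, 0.00024, 0.57 and -0.28. Their mean had the sign of IGF2 in pair 1 and the opposite sign in pairs 3 and 4. In pair 2 it was near 0, with 2 markers above 0 and 2 below. The theca markers did not move together. In pair 3 PTCH1 was at 2.61, INSL3 at 0.22 and HHIP at 0.31. CYP17A1, the androgen-making enzyme of theca cells, was at -0.85 there. The 5 endothelial markers averaged -0.26, 0.081, 0.24 and 0.31, opposite to IGF2 in pairs 1 to 3, and the 3 red blood cell markers -0.23, 0.17, 0.13 and -0.16, opposite in all 4. CYP17A1 was brightest in the atretic follicle of pair 1, at 9.42 against 7.02 to 8.41 in the others. Its ratios were 1.77, -0.053, -0.85 and -0.88, with the sign of IGF2 in pairs 1 to 3 and the opposite sign in pair 4. The part of these cells in the IGF2 values was not tested.

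**Figure D2:**
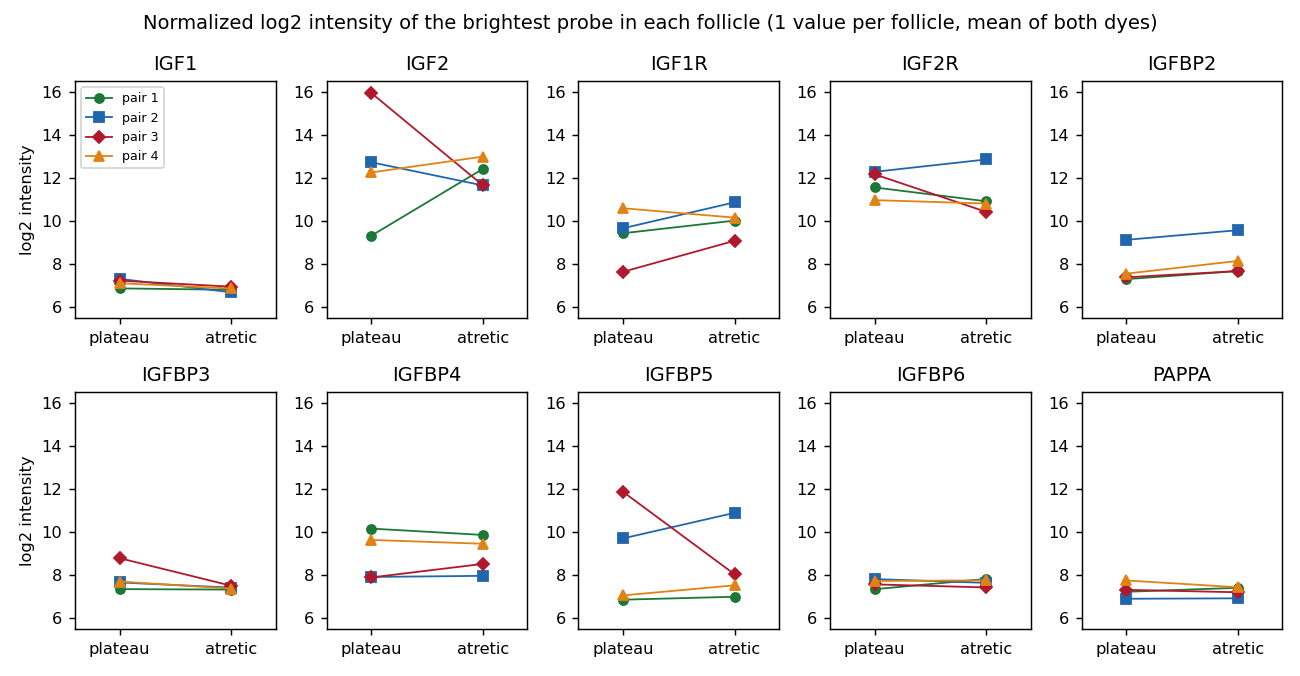
Normalized log2 intensity (y axis) of the brightest probe of each member in the plateau and atretic follicle of each pair, joined by a line, with 1 value per follicle. Heights can be compared within a panel only; the plateau follicle of pair 3 is highest for IGF2 (15.94), IGFBP3 (8.78) and IGFBP5 (11.86) and lowest for IGF1R (7.65) and IGFBP4 (7.89).

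IGF1R (EMBV3_01742), the signalling receptor, had the largest mean ratio among the members tested. Its levels were 10.03, 10.87, 9.09 and 10.17 in the atretic follicles. The plateau follicles read 9.44, 9.67, 7.65 and 10.60. It was higher in the atretic follicle in pairs 1 to 3 and lower in pair 4.

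The ratios of IGF1R were 0.59, 1.20, 1.44 and -0.43, with a mean of 0.70 ± 0.84 (SD, n = 4), a fold of 1.62. The confidence interval ran from -0.13 to 1.53 and the adjusted p in limma was 0.719. Both dye orientations of a pair differed by at most 0.24, so the spread lay between pairs. Without pair 4 the mean was 1.07 and passed the study's threshold at an unadjusted p of 0.00668, with an adjusted p of 0.546, where 5.73% of all genes passed, and without pair 3 it was 0.45. The granulosa markers averaged -0.11, 0.91, 2.27 and -0.62 in the same pairs. Their mean had the sign of IGF1R in pairs 2, 3 and 4 and the opposite sign in pair 1. In pair 1, though, 9 of the 12 markers were above 0, as IGF1R was, and 3 below. Over the 8 follicles the level of IGF1R correlated at r = 0.62 with the granulosa list and at -0.76 with the stroma list. The other lists gave 0.59 (theca), -0.60 (macrophage), -0.43 (smooth muscle), -0.14 (endothelium) and -0.22 (red blood cell). The plateau follicle of pair 3 was lowest for IGF1R, at 7.65, and highest for the stroma list, at 12.5. These r were not computed without it. The part of these cells in the IGF1R values was not tested.

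IGF2R (EMBV3_42725), the clearance receptor, was well above background in all 16 channels. It read 10.92, 12.86, 10.43 and 10.82 in the atretic follicles and 11.56, 12.29, 12.17 and 10.98 in the plateau follicles. Both follicles of pair 2 and the plateau follicle of pair 3 were highest. The ratios were -0.64, 0.57, -1.74 and -0.16 and their mean was -0.49 ± 0.97 (95% confidence interval -1.44 to 0.46), at an adjusted p of 0.834. Without pair 3 the mean was -0.076, so most of it came from that pair.

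IGFBP2 (EMBV3_22692), a binding protein that prefers IGF2, was higher in the atretic follicle of every pair. Its levels were 7.69, 9.58, 7.69 and 8.16 in the atretic follicles. The plateau follicles of the same pairs read 7.31, 9.13, 7.40 and 7.57. Those of pairs 1 and 3 were close to the negative controls, which limits the ratios of these pairs. Of 16 channels, 14 were above the negative controls, 8 of them atretic and 6 plateau. Pair 2 was the brightest in both phases, and the ranges of the phases overlapped through that pair alone.

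The ratios of IGFBP2 were 0.38, 0.45, 0.29 and 0.59, with a mean of 0.43 ± 0.13 (SD, n = 4), a fold of 1.34, which is under the study's fold of 1.5. The 95% confidence interval ran from 0.15 to 0.70, the unadjusted p was 0.0104 and the adjusted p in limma was 0.455. The SD was small, with 8.16% of genes tested having a smaller one. The ratio was above 0 on 7 of 8 arrays, the exception being pair 3 with the atretic RNA in Cy5, at -0.028, against 0.61 with the dyes swapped. The mean was 0.28 on the slide with atretic RNA in Cy5 and 0.57 on the other, and 0.37 to 0.47 with 1 pair left out. The same sign in all 4 pairs was shared by 16.8% of all genes, and among the 9 members by IGFBP2 and IGFBP3.

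IGFBP3 (EMBV3_35259), the main carrier of IGFs in blood, was lower in the atretic follicle of every pair. It read 7.32, 7.42, 7.50 and 7.37 in the atretic follicles, which lay within 0.18 of each other and close to the negative controls. The plateau follicles read 7.35, 7.65, 8.78 and 7.70. The ratios were -0.021, -0.24, -1.28 and -0.33, and the mean was -0.47 ± 0.55 (95% confidence interval -1.05 to 0.11), at an adjusted p of 0.731. Pair 3 gave most of it, and without that pair the mean was -0.20. In pairs 1 and 2 both dye orientations disagreed in sign. The brightest was the plateau follicle of pair 3, the follicle with the high stroma markers.

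IGFBP4 (EMBV3_38807), a binding protein that holds back IGF action and is a substrate of PAPPA, separated the pairs and not the phases. It read 9.86, 7.96, 8.51 and 9.45 in the atretic follicles. It read 10.15, 7.91, 7.89 and 9.63 in the plateau follicles. The 4 follicles of pairs 1 and 4 were all above the 4 follicles of pairs 2 and 3, whatever their phase. The ratios were -0.29, 0.052, 0.63 and -0.18, with a mean of 0.052 ± 0.41 (95% confidence interval -0.41 to 0.51), at an adjusted p of 0.973. In pair 2 the dye orientations disagreed in sign, at -0.29 and 0.39.

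IGFBP5 (EMBV3_02670), which in rats is known from granulosa cells of atretic follicles and which PAPPA also cuts, showed the reverse order. Its levels were 6.99, 10.88, 8.04 and 7.52 in the atretic follicles. The plateau follicles read 6.85, 9.70, 11.86 and 7.05. Readings of 6.85 to 7.52 in pairs 1 and 4 were close to the negative controls, and the highest levels were those of the plateau follicle of pair 3 and both follicles of pair 2.

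The ratios of IGFBP5 were 0.14, 1.18, -3.82 and 0.47. Their mean was -0.51 ± 2.25 (95% confidence interval -2.65 to 1.64), at an adjusted p of 0.933, and the SD was larger than in 99.3% of genes. It was higher in the atretic follicle in 3 of 4 pairs, and without pair 3 the mean was 0.60 with an unadjusted p of 0.0554 and an adjusted p of 0.789. The value of pair 3 held in both dye orientations, at -3.89 and -3.76. In pair 1 the orientations differed in sign, at -0.40 and 0.68.

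IGFBP6 (EMBV3_08131), a binding protein that strongly prefers IGF2, stayed within a narrow band, at 7.42 to 7.82 in the atretic and 7.34 to 7.81 in the plateau follicles. Its ratios were 0.48, -0.18, -0.14 and 0.027, and their mean was 0.047 ± 0.30 (95% confidence interval -0.33 to 0.43), at an adjusted p of 0.970. All 16 channels were above the negative controls, though not by much.

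PAPPA (EMBV3_15420) read 7.41, 6.92, 7.20 and 7.43 in the atretic follicles. The plateau follicles read 7.22, 6.90, 7.31 and 7.75. Both follicles of pair 2 were lowest, and 10 of 16 channels were above the negative controls. The ratios of 0.18, 0.020, -0.11 and -0.32 averaged -0.056 ± 0.21 (95% confidence interval -0.38 to 0.26), at an adjusted p of 0.951.

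Counted by pair, 6 of the 9 members were higher in the atretic follicle in pair 1, 6 in pair 2, 3 in pair 3 and 4 in pair 4. The lowest member was IGF2R in pair 1, IGF2 in pairs 2 and 3, and IGF1R in pair 4. IGF2 was the highest in pairs 1 and 4, and IGF1R in pairs 2 and 3. The medians over the 9 were 0.18, 0.052, -0.14 and -0.16. The SD over all genes was 0.96 in pair 3 and 0.53 to 0.57 in the others, so pair 3 held larger differences in general.

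**Figure D3:**
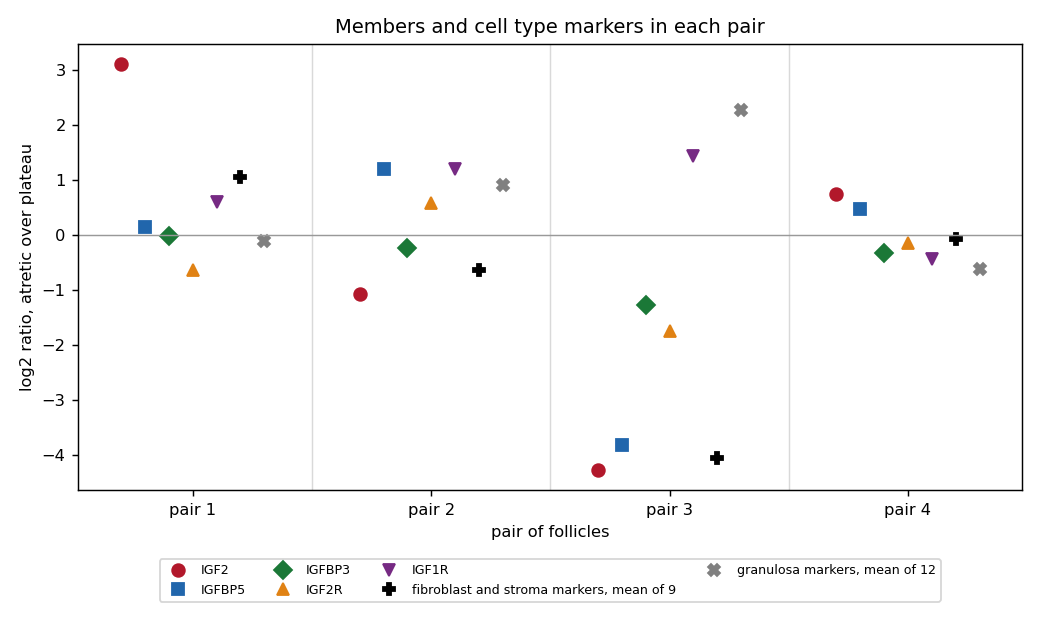
Log2 ratio of atretic over plateau (y axis) of 5 members and of the mean of 2 marker lists, by pair of follicles (x axis). In pair 3 IGF2 (-4.28), IGFBP5 (-3.82), IGF2R (-1.74) and IGFBP3 (-1.28) lie below 0 with the stroma markers (-4.05), and IGF1R (1.44) lies above 0 with the granulosa markers (2.27). Lists not drawn averaged -1.39 (smooth muscle), -1.26 (macrophage), 0.57 (theca), 0.24 (endothelium) and 0.13 (red blood cell) there. The part of these cells in the members' values was not tested.

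The opposite order of IGFBP4 and IGFBP5 over the 8 follicles was the closest relation among the pairings of members. Their levels correlated at r = -0.91 (rho = -0.98, n = 8 follicles), and at r = -0.92 without the 2 follicles farthest from the median of IGFBP4. This is a description chosen after the values were seen, and both follicles of a pair share arrays, so no p is given. The IGFBP5 readings of 6.85 to 7.52 in pairs 1 and 4 were close to the negative controls. Their order among themselves carries little weight, and rho depends in part on it. IGF2 and IGFBP3 correlated at r = 0.81, but rho was 0.40 and r was -0.0091 without the 2 farthest follicles, so that relation rested on those follicles.

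CYP19A1, a granulosa marker chosen here after its values were seen, was read beside both binding proteins. It was 15.9, 8.97, 12.1 and 15.1 in the atretic follicles and 14.9, 7.20, 7.52 and 15.8 in the plateau follicles. All 4 follicles of pairs 1 and 4 were thus bright, in both phases, and both follicles of pair 2 and the plateau follicle of pair 3 were dim. Levels of 15.8 and 15.9 are close to the 15.94 that IGF2 reached near the top of the scanner's scale. Those of 7.20 and 7.52 are close to the negative controls, so differences between these ends may be measured too small. Among the other granulosa markers SERPINE2, INHBA and INHA reached 15.97. IGFBP4 followed it at r = 0.95 (rho = 0.83) and IGFBP5 ran against it at r = -0.92 (rho = -0.79). With the mean of all 12 granulosa markers the values were 0.89 and -0.92. For CYP19A1 itself, without the 2 follicles farthest from its median, r was 0.93 with IGFBP4 and -0.95 with IGFBP5. Of the 8 follicles, 7 lay near an end of the CYP19A1 range, at 7.20 to 8.97 or 14.9 to 15.9, so these values rest on that separation. PAPPA correlated with CYP19A1 at r = 0.73, IGF2R at r = -0.76 and IGF1R at r = 0.41, the last turning to -0.20 without those 2 follicles.

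Within pairs the relation was not uniform. CYP19A1 ratios were 0.95, 1.78, 4.58 and -0.67, so IGFBP4 had the opposite sign in pair 1 and the same sign in pairs 2, 3 and 4. IGFBP5 had the opposite sign in pairs 3 and 4 and the same sign in pairs 1 and 2. The dye orientations disagreed in sign for IGFBP4 in pair 2 and for IGFBP5 in pair 1, so those signs carry little weight. Other cells also differed along this order. The macrophage markers averaged 7.55, 8.19, 8.45 and 7.28 in the atretic and 6.96, 9.46, 9.71 and 7.41 in the plateau follicles, and correlated at r = -0.90 with IGFBP4 and 0.83 with IGFBP5. Smooth muscle markers correlated at r = -0.89 with IGFBP4 and at 0.89 with IGFBP5. Endothelial markers, with mean levels close to the negative controls, correlated at -0.87 and 0.69. Stroma markers correlated at -0.49 with IGFBP4 and at 0.68 with IGFBP5. Theca markers ran the same way as the granulosa markers, at 0.74 and -0.84, and red blood cell markers gave 0.32 and -0.22. The part of these cells in the order of IGFBP4 and IGFBP5 was not tested.

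**Figure D4:**
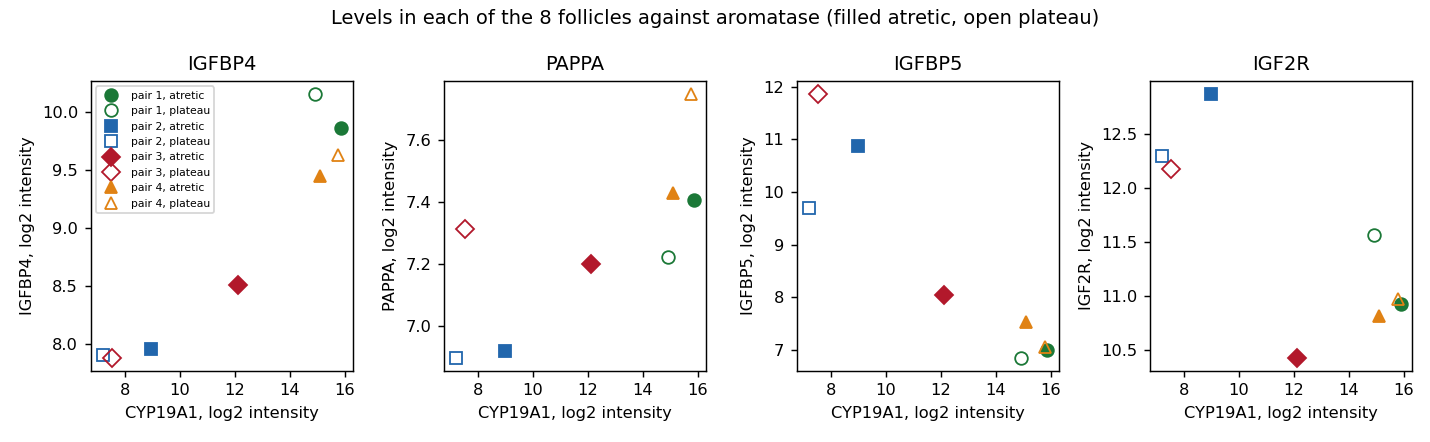
Level of IGFBP4, PAPPA, IGFBP5 and IGF2R (y axes, normalized log2 intensity) against that of CYP19A1 (x axis, same unit) in the 8 follicles, with filled points for atretic and open points for plateau. IGFBP4 lies higher (r = 0.95) and IGFBP5 lower (r = -0.92) in follicles bright for CYP19A1, with both phases at either end.

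By the likeness of levels over the 8 follicles, the gene closest to IGFBP5 among all others tested was GRB10 (r = 0.99), which codes for an adaptor that binds the insulin and IGF1 receptors and dampens their signal. GRB10 read -0.016, 0.46, -3.05 and 0.10 as ratios in its brightest probe, beside 0.14, 1.18, -3.82 and 0.47 for IGFBP5. Its dimmer probes, of which 2 were tested, differed from it, with -0.058 and 0.24 in pair 3. The closest genes to the others were ELL3 for IGF2 (r = 0.97), LRRC61 for IGF1R (0.98), SMG6 for IGF2R (0.97), MMEL1 for IGFBP2 (0.98), ART1 for IGFBP3 (0.99), CCDC69 for IGFBP4 (0.98), MED7 for IGFBP6 (0.95) and TNS3 for PAPPA (0.98). Each is the highest value among all genes tested that are not members, over 8 follicles that share arrays in pairs, and for IGF2 the value was 0.76 without its 2 farthest follicles.

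Some members are neighbours in the genome. In the gene records of assembly ARS-UCD2.0, IGFBP2 and IGFBP5 lie next to each other, IGFBP3 lies next to IGFBP1, and IGF2 next to INS. The neighbours IGFBP2 and IGFBP5 were both bright in both follicles of pair 2, but in the plateau follicle of pair 3 IGFBP5 was at its highest and IGFBP2, at 7.40, near its lowest. IGFBP1 was under the level for testing and 0 of its 16 channels were above the negative controls.

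Of 27 other genes of the pathway, 23 had a probe and 18 were tested. None passed the threshold in limma, with 0 that rose and 0 that fell, beside the 5.66% of all genes. At an unadjusted p of 0.05 without a fold the count was 0, beside 9.57% of all genes. Their median ratio was -0.043. The smallest p was that of MMP2, a gelatinase that can cut IGF binding proteins, at -0.41 ± 0.49 (adjusted p 0.742), with ratios of -0.30, -0.034, -1.12 and -0.18 and only 3 of 16 channels above the negative controls. SHC1, an adaptor downstream of IGF1R, followed at -0.32 ± 0.44 (adjusted p 0.785).

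The extremes of the list again came from pair 3. STC1, a secreted protein that inhibits PAPPA, had ratios of 0.23, -0.011, -3.57 and -0.44. GRB14, an adaptor of the same family as GRB10, had -0.46, -0.64, 4.58 and -0.52, and its dimmer probe 2.30 in pair 3. INSR, the insulin receptor, which pairs with IGF1R in hybrid receptors, had -1.06, -0.54, 1.53 and -0.39. These 3 genes were chosen after their values were seen, and none passed the threshold.

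**Figure D5:**
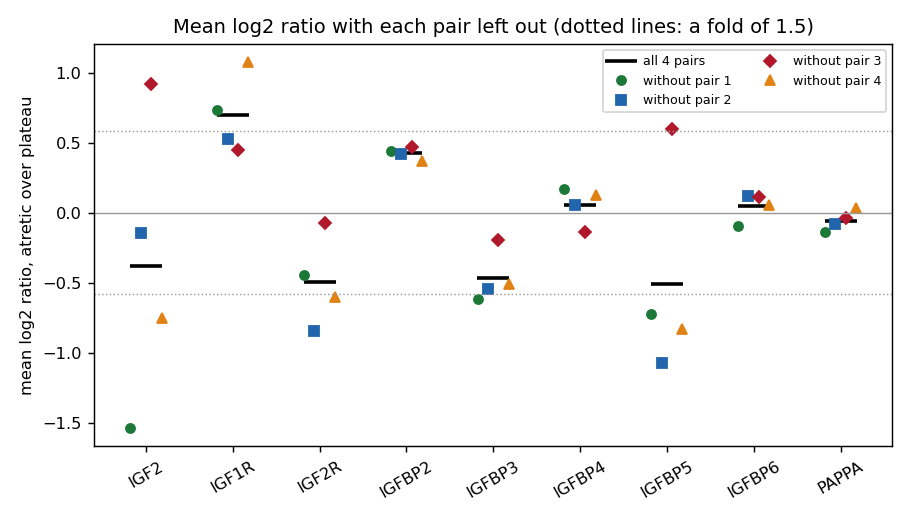
Mean log2 ratio of atretic over plateau (y axis) of the 9 tested members (x axis) over all 4 pairs (bar) and with each pair left out (points), with dotted lines at a fold of 1.5. IGF2 and IGFBP5 change sign without pair 3 (0.92 and 0.60), IGF1R is largest without pair 4 (1.07), and IGFBP2 stays between 0.37 and 0.47.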

How the data were processed

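The authors amplified the granulosa cell RNA linearly, labelled it with Cy3 and Cy5, hybridised it to EmbryoGENE bovine arrays and scanned with automatic gain per array. The authors deposited median spot and local background intensities. The authors also deposited log2 ratios (Cy5 over Cy3), for which they had subtracted background and applied loess and quantile normalization. The deposited table was used as an alternative only. It correlated at nearly 1 with Cy5 over Cy3 recomputed from the intensities, which settled its direction.

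Here the deposited intensities were corrected with normexp (offset 50), normalized by loess (span 0.3, control and marked spots at weight 0) and by quantiles between arrays, and turned to atretic over plateau. Between slides, deviations correlated at 0.760 to 0.865 for the 4 equal array numbers and at -0.488 to -0.0328 for the 12 unequal ones, so arrays of equal number were averaged as dye swaps of the same pair of follicles. The pairing comes from the hybridisation, not from an animal, and slide and dye orientation cannot be told apart. The 34022 probes with a mean log2 intensity of at least 7 entered lmFit and eBayes of limma 3.58.1 (R 4.3.3) and adjusted by Benjamini-Hochberg over all of them. The brightest tested probe stood for its gene. Symbols came from the platform annotation, updated through gene records of ARS-UCD2.0; 21790 of 43794 probes had one. The fit was tested on simulated data. Figures were drawn with matplotlib 3.10.9.

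Every member is named with every probe. Of the other pathway genes, up to 4 past the threshold were to be named, and otherwise the 2 with the smallest p; per member, the gene closest in level was named. GRB10's other probes, STC1, GRB14, INSR and CYP19A1 were added after their values were seen. The members and lists were chosen with earlier results of these data known. Arrays of the growing phase were not used here, and no sequences are printed.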

Additional observations from a re-analysis of the deposited data

Results flagged for a closer look

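Within the 4 plateau follicles, the level of IGFBP2 in pair 2 was 9.13, far above the other 3, which read 7.31 to 7.57, with a gap of 0.86 of the whole range, past Dixon's critical value for 4 samples. It was the only sample that stood apart in 27 such tests over the members' levels and ratios, and chance marks about 1 in 20 groups. The atretic follicle of the same pair was also the brightest of its phase, at 9.58, and both were read on the same arrays.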

How the results depend on the processing

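Over the alternatives to background correction, normalization, filter, source of values, variance model, probe, slide, block, fold and pairs, the 10 genes' ratios kept direction and side of the threshold in 161 values, passed it in 4 and reversed in 7. The count of genes, and of probes, past the study's threshold was 1 in place of 0 on the slide with atretic RNA in Cy3 alone (IGFBP3, -0.61, beside 9.07% of all genes), with no fold (IGFBP2, beside 9.57%), and with the pair as a replicate block on 8 arrays, without or with a dye term (IGF1R, unadjusted p 0.0138 and 0.0168). The block called 9.35% of genes and 556 probes at an adjusted p of 0.05, with a dye term 444, but 0 members. It counts technical dye swaps as arrays. With 1 pair left out the count was 0 to 1, the latter without pair 4 (IGF1R), the count at an adjusted p of 0.05 was 0, and the median over members was -0.14 to 0.11. Then IGF2 ran from -1.54 to 0.92, IGFBP5 from -1.07 to 0.60 and IGFBP4 from -0.14 to 0.17. IGFBP6 ran from -0.096 to 0.12 and PAPPA from -0.14 to 0.031. The median changed sign without pair 3 and without pair 4, and was 0.047 with probes kept only where each array showed them over the negative controls. Signs also turned for the first 3 genes without pair 3, IGFBP6 without pair 1 and PAPPA without pair 4. On the slide with atretic RNA in Cy5 alone IGFBP4 was -0.13 and IGFBP6 -0.022. The causes were not tested. Without normalization between arrays, or with Aquantile, genes past the threshold split into 273 higher and 418 lower, against 364 and 376. Signal near the negative controls limits IGF1, PAPPA, IGFBP3, IGFBP6, the dimmer IGF2 probes, IGFBP2 in plateau follicles 1 and 3 and IGFBP5 in pairs 1 and 4.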
